A study of Mus musculus with 6 samples.

Results

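The mitochondrial genome of the mouse carries its own genes, which the count table lists with names that start with mt- on chromosome MT. All genes with such a name were taken, 37 of the 26835 genes in the table. They are 13 protein genes, 2 ribosomal RNA genes and 22 transfer RNA genes. The protein genes are the main readout, since the libraries were made from RNA selected on oligo(dT), which holds RNA with a poly(A) tail. The hearts came from C57BL/6 mice of 7 to 8 weeks and about 20 g, whose genotype the labels spell "wide type". The CFZ_EA group was given the proteasome inhibitor carfilzomib, a myeloma drug with known cardiac toxicity, at a dose of 8 mg/kg together with electroacupuncture, in which needles at the acupoint PC6 carry a current. The CFZ group was given the same 8 mg/kg dose alone, and the control group an intraperitoneal injection of 10% DMSO. Each group had 2 libraries, 6 in all, and the labels list days 0, 2, 4 and 6 for all of them without tying a day to an event. The comparisons ask how carfilzomib alters cardiac transcripts and how electroacupuncture alters them in treated mice.

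Both strands of the circular mitochondrial genome are transcribed as long RNAs that are cut at the tRNAs lying between the other genes. Most of the mRNAs, and the rRNAs, released in this way receive short poly(A) tails inside the organelle. Each protein gene encodes a subunit of the oxidative phosphorylation machinery, namely complexes I, III and IV of the respiratory chain and complex V, the ATP synthase. The other subunits of these complexes are encoded in the nucleus, so each complex is built from the products of both genomes. Complex II is encoded in the nucleus alone. Heart muscle is rich in mitochondria, and mitochondrial transcripts are known to take a large part of cardiac RNA.

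Several features of the sequences bear on how the reads can be counted. They are taken from the GENCODE M21 transcripts on the GRCm38 build, whose coordinates and lengths were the same as in the table for all 37 genes. In 2 places a pair of reading frames overlaps on the same mRNA, shown here with the bases that belong to both frames in capitals. The overlap of mt-Atp8 and mt-Atp6 spans 43 bases, here with its flanks at chrMT:7918-7978, plus strand. That of mt-Nd4l and mt-Nd4 spans 7 bases, at chrMT:10158-10182, plus strand.
mt-Atp8/mt-Atp6: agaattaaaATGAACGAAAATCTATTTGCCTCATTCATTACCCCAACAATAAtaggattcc
mt-Nd4l/mt-Nd4: cctactacaATGCTAAaaattattc
Of the ends of the genes, 10 of the 13 protein genes end in a complete stop codon, and mt-Co3, mt-Nd4 and mt-Cytb end in a lone T that the first bases of a poly(A) tail turn into one. The last 30 bases of each are shown with the stop codon bases in capitals, beside mt-Co1, whose stop codon is complete. They lie at chrMT:9361-9390, chrMT:11515-11544, chrMT:15259-15288 and chrMT:6843-6872, all on the plus strand.
mt-Co3: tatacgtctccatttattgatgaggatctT
mt-Nd4: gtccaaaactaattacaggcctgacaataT
mt-Cytb: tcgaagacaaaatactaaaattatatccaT
mt-Co1: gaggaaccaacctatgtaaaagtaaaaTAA

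In addition, the nuclear genome holds a near-perfect copy of a stretch of the mitochondrial genome. The annotation splits it into 7 pseudogenes on chromosome 1, on the minus strand of chr1:24611535-24616197 (GRCm38), which together span 4.66 kb. The copies match mt-Co1 from base 1063 (Gm29216), mt-Co2 (Gm28661), mt-Atp6 (Gm10925), mt-Co3 (Gm28437), mt-Nd3 (Gm28438), mt-Nd4l (Gm10222) and the first 876 bases of mt-Nd4 (Gm28439). Over 4140 aligned bases there were 2 mismatches, and 5 of the 7 copies had none. Counting from 1 at the 5′ end of the mitochondrial gene, with its base given first, the mismatches are A1066T in mt-Co1 and T3C in mt-Nd3. The bases around each mismatch are shown with the mismatch in capitals. The match of Gm29216 starts at base 1063 of mt-Co1, and the bases shown before that point lie outside it and differ further.
mt-Co1: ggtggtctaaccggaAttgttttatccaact
Gm29216: ggattggcaggaTttgttttatccaact
mt-Nd3: atTaacctgtacactgtt
Gm28438: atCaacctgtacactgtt
The windows lie at chrMT:6378-6408 and chrMT:9459-9476 on the plus strand, and at chr1:24616170-24616197 and chr1:24613102-24613119 on the minus strand. A read from these stretches therefore cannot be told apart from a read of the copy, apart from those that cross a mismatch. How the authors' tools assigned such reads is not given in the sources used here.

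Estimated counts totalled 65578510 and 75742448 in the CFZ_EA libraries, 65144234 and 63430597 in CFZ, and 57360755 and 50013990 in control. All 9 markers of heart muscle cells were present, with summed levels of 23226 to 27866 FPKM (fragments per kilobase of gene, scaled to library size). Control replicate 2 stood apart: the 7 fibroblast markers summed to 1031 FPKM there, against 124 to 198 FPKM in the other 5 libraries, and the 6 macrophage markers to 699 FPKM, against 175 to 240 FPKM. The 6 atrial markers summed to 958 and 5691 FPKM in CFZ_EA, 334 and 201 FPKM in CFZ, and 2829 and 1599 FPKM in control. Both CFZ libraries thus lay below every library of the other groups. The sum also differed several-fold between libraries of the CFZ_EA group. In whole tissue, fewer cells of a type and less RNA per cell cannot be told apart. Whether the replicates are separate mice is not in the labels, so each p-value reflects the spread between these libraries alone, and that spread may be technical.

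The 13 protein genes took about 1 in 5 counts in 5 of the libraries and fewer in control replicate 2. Their share was 18.7% and 21.0% in CFZ_EA, 17.7% and 19.2% in CFZ, and 20.4% and 14.1% in control. The 95% Wilson intervals reached at most 0.0104 percentage points to either side, and cover counting error only. The control libraries thus held both the lowest share and the second highest, and no pair of groups was separated. The mean share was 19.8% ± 1.58 in CFZ_EA, 18.4% ± 1.01 in CFZ and 17.3% ± 4.49 in control (SD, n = 2 each). The mean differed by 1.18 percentage points for CFZ minus control (exact two-sided permutation p = 1.0), by 1.40 for CFZ_EA minus CFZ (exact p = 0.667) and by 2.58 for CFZ_EA minus control (exact p = 0.667). With 2 libraries against 2, this exact test cannot go below p = 0.333. Without control replicate 2 the differences from control turned round, to -1.99 percentage points for CFZ and -0.59 for CFZ_EA. The fibroblast and macrophage marker sums were highest in that library, and their part in its low share was not tested. The difference of CFZ_EA minus CFZ was 0.28 percentage points without CFZ_EA replicate 2.

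**Figure D1:**
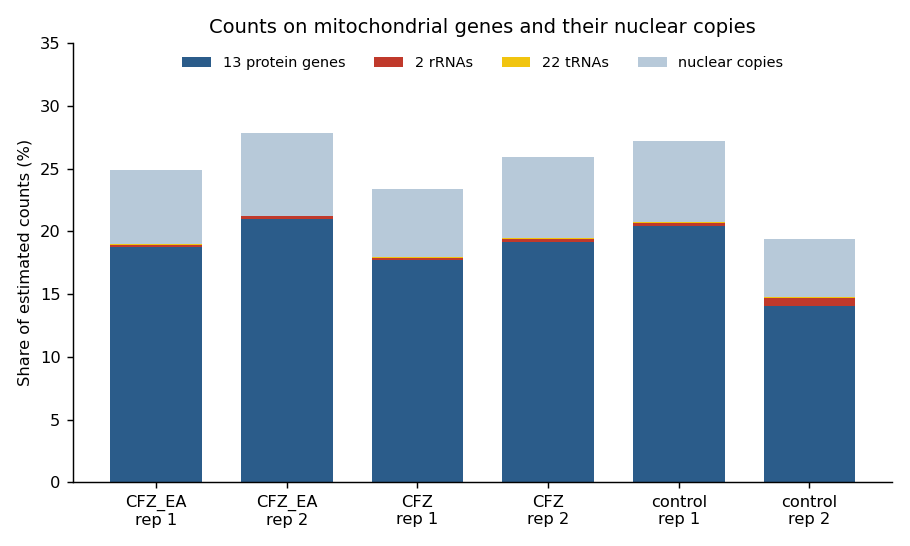
Share of estimated counts in percent (vertical axis) on the mitochondrial protein genes, rRNAs and tRNAs and on their nuclear copies, stacked, in each of the 6 libraries. Control replicate 2, at 14.1%, has the shortest protein gene segment, the other libraries lie between 17.7% and 21.0%, and rRNA is widest in control replicate 2.

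The nuclear copies took a further 5.88% and 6.56% of the counts in CFZ_EA, 5.47% and 6.51% in CFZ, and 6.50% and 4.63% in control. Control replicate 2 was again the lowest library. Adding the copies to the 13 genes gave 24.6% and 27.5% in CFZ_EA, 23.2% and 25.7% in CFZ, and 26.9% and 18.7% in control. Where copy and gene are alike over nearly the whole length, their levels were close, except for mt-Atp6. The copy's FPKM over that of the gene ran from 0.88 to 0.98 for mt-Co2, 0.90 to 0.97 for mt-Co3, 0.97 to 1.04 for mt-Nd3 and 0.965 to 1.002 for mt-Nd4l over the 6 libraries. The partial copies of mt-Co1 and mt-Nd4 ran lower, from 0.48 to 0.59 and from 0.32 to 0.35. The copy of mt-Atp6 was listed 6.04 to 6.78 times above its gene, with the lowest ratio in control replicate 2. Other copies on chromosome 2, which match mt-Co1 at 97.6%, mt-Co2 at 95.9% and part of mt-Nd2 at 96.7%, stayed between 25.4 and 66.6 FPKM. The level listed for each of the 7 genes matched on chromosome 1 is therefore uncertain, that of mt-Atp6 most of all. mt-Atp8, mt-Ts1, mt-Td, mt-Tk, mt-Tg and mt-Tr lie between these genes on the mitochondrial genome. The copies on chromosome 1 follow each other in the order of these genes, with gaps of the same or nearly the same length. The stretch thus has room for the genes in between, and the 43 bases that mt-Atp8 shares with mt-Atp6 are in the copy. The sequence of the gaps was not compared, so the levels of the genes in between may be uncertain too. mt-Nd1, mt-Nd2, mt-Nd5, mt-Nd6, mt-Cytb and both rRNAs lie outside the chromosome 1 copy.

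The levels of the protein genes, which are per length on the FPKM scale, differed far more between genes than between libraries. The catalytic core subunits of complex IV, cytochrome c oxidase, came first. mt-Co1 (ENSMUSG00000064351, 5328 to 6872, plus strand), which binds the oxygen-reducing haem and copper centre, measured 61856 and 58178 FPKM in CFZ_EA, 61262 and 60946 FPKM in CFZ, and 60357 and 46655 FPKM in control. Its 5 highest libraries lay within a narrow range, and control replicate 2 fell outside it. mt-Co3 (ENSMUSG00000064358, 8607 to 9390, plus strand) measured 26465 and 26753 FPKM in CFZ_EA, 26758 and 29983 FPKM in CFZ, and 26192 and 19754 FPKM in control. mt-Co2, which carries the copper site that takes electrons from cytochrome c, measured 12682 and 19198 FPKM in CFZ_EA, 11008 and 14149.8 FPKM in CFZ, and 17764 and 9855 FPKM in control. Unlike in mt-Co1, CFZ_EA replicate 2 and control replicate 1 were the high libraries in mt-Co2.

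The only mitochondrial gene of complex III, mt-Cytb, encodes cytochrome b, which passes electrons from ubiquinol. It measured 12265 and 17348 FPKM in CFZ_EA, 10725 and 12633 FPKM in CFZ, and 15633 and 8913 FPKM in control. The lowest and the highest control value enclosed both CFZ values.

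Complex I, NADH dehydrogenase, has 7 mitochondrial subunits in its membrane arm. mt-Nd1, next to the quinone site, was the highest, with 9339 and 11722 FPKM in CFZ_EA, 8628 and 10048 FPKM in CFZ, and 11218 and 6142 FPKM in control. mt-Nd2, mt-Nd4 and mt-Nd5 encode the subunits related to sodium-proton antiporters. mt-Nd2 measured 5549 and 8512 FPKM in CFZ_EA, 4488 and 5520.2 FPKM in CFZ, and 8012 and 4358 FPKM in control. mt-Nd4 (ENSMUSG00000064363, 10167 to 11544, plus strand) measured 5017 and 9079 FPKM in CFZ_EA, 3534 and 5331 FPKM in CFZ, and 7348 and 4019 FPKM in control. Its partner on the same mRNA, mt-Nd4l (ENSMUSG00000065947, 9877 to 10173, plus strand), measured 2803 and 4815 FPKM in CFZ_EA, 1788 and 2340.4 FPKM in CFZ, and 3743 and 1953 FPKM in control. In both genes CFZ replicate 1 was the lowest library and CFZ_EA replicate 2 the highest. mt-Nd5 measured 2499.5 and 3254 FPKM in CFZ_EA, 1989.7 and 1974 FPKM in CFZ, and 2994 and 1726 FPKM in control. mt-Nd3 measured 3223 and 3894 FPKM in CFZ_EA, 3387 and 4014 FPKM in CFZ, and 4287 and 2301 FPKM in control. mt-Nd6, the protein gene encoded on the minus strand, measured 4118 and 5646 FPKM in CFZ_EA, 3598 and 4279.7 FPKM in CFZ, and 5788 and 3067 FPKM in control. It overlaps the end of mt-Nd5 on the other strand by 14 bases, and the long RNA of the plus strand runs across all of mt-Nd6 before it is cut. Whether the counting used strand is not given in the sources used here, so the listed mt-Nd6 level may hold reads of both strands.

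Complex V has a pair of mitochondrial subunits, and their genes share the overlap shown above. mt-Atp8 measured 7042 and 9497 FPKM in CFZ_EA, 6409 and 6723 FPKM in CFZ, and 9352 and 4661 FPKM in control. mt-Atp6, the subunit with the proton channel, was listed at 1298 and 1891 FPKM in CFZ_EA, 1159 and 1619 FPKM in CFZ, and 1792 and 1086 FPKM in control. With its copy on chromosome 1 so far above it, the listed mt-Atp6 level cannot be set against that of mt-Atp8.

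From the top, the order of mean FPKM was mt-Co1, mt-Co3, mt-Co2, mt-Cytb, mt-Nd1, mt-Atp8, mt-Nd2, mt-Nd4, mt-Nd6, mt-Nd3, mt-Nd4l, mt-Nd5 and mt-Atp6. The places of the first 6 and of the last gene were the same in all 6 libraries. These are listed levels without the nuclear copies. The copy of mt-Atp6 was listed 6.04 to 6.78 times above its gene, so the last place of mt-Atp6 is uncertain. Between them neighbours changed places: mt-Nd2 and mt-Nd4 in CFZ_EA replicate 2, mt-Nd4 and mt-Nd6 in CFZ replicate 1, and likewise mt-Nd3, mt-Nd4l and mt-Nd5. The highest library exceeded the lowest 1.33-fold in mt-Co1 and 1.52-fold in mt-Co3, and 2.57-fold in mt-Nd4 and 2.69-fold in mt-Nd4l. Within control alone, replicate 1 exceeded replicate 2 by 1.29-fold (mt-Co1) to 2.01-fold (mt-Atp8). Control replicate 2 was the lowest library for 11 of the 13 genes, and CFZ_EA replicate 2 the highest for 9.

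**Figure D2:**
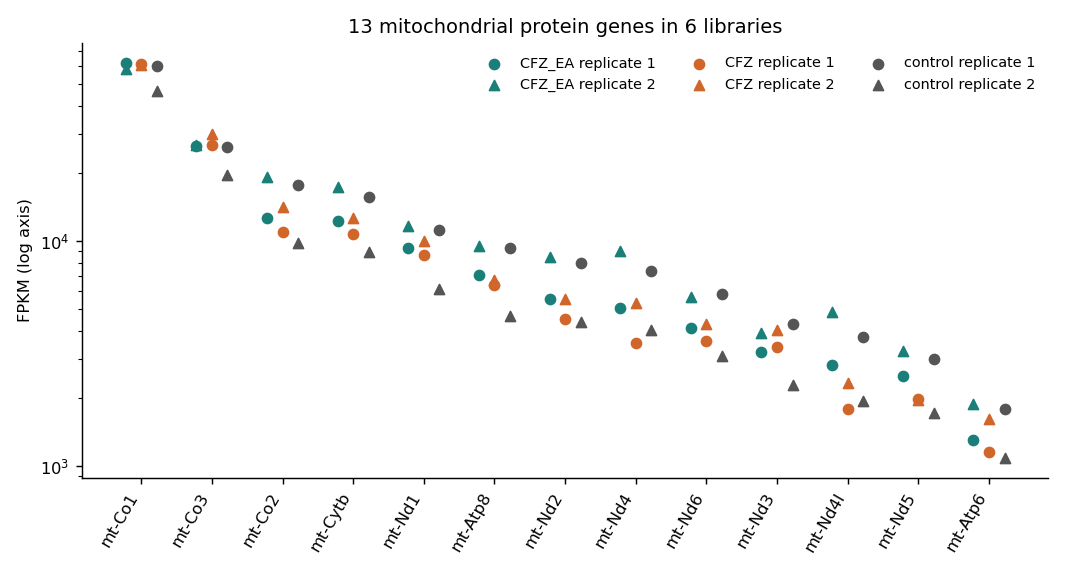
FPKM (vertical log axis) of the 13 protein genes, ordered by mean, in the 6 libraries, with colour for the group and circle or triangle for replicate 1 or 2. Listed means, without the nuclear copies, run from about 58209 FPKM for mt-Co1 to 1474 FPKM for mt-Atp6, whose level is uncertain. The highest library exceeds the lowest by 1.33-fold (mt-Co1) to 2.69-fold (mt-Nd4l), and the grey triangle of control replicate 2 is the lowest point in 11 genes.

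In CFZ hearts against control, no mitochondrial protein gene was called, and their values went both ways around 0. The tests used edgeR's quasi-likelihood test over the 10329 genes whose mean FPKM reached 1, all 37 mitochondrial genes among them, and called a Benjamini-Hochberg adjusted p under 0.05. Over all genes 0.029% were called, 3 genes, all lower in CFZ, and DESeq2 called 138 genes. None of the 13 had an unadjusted p under 0.05, with edgeR or DESeq2, against 797 of all genes with edgeR, and neither DESeq2 nor limma called a member. The median log2 fold change of the 13 genes was -0.06, against -0.0034 over all genes tested, with 4 positive and 9 negative. The cytochrome c oxidase genes mt-Co3 (0.35 ± 0.27, SE) and mt-Co1 (0.24 ± 0.32) were the most positive, though without control replicate 2 they were 0.11 and 0.0046, and mt-Nd4l (-0.42 ± 0.42) and mt-Nd4 (-0.31 ± 0.46) the most negative. Adjusted p ran from 0.753 to 0.999 over the 13 genes in edgeR's test. The sign of mt-Atp6 (-0.0042 ± 0.36) and of mt-Cytb (-0.03 ± 0.38) turned with the filter on low values. mt-Co1 and mt-Co3 were higher in both CFZ libraries than in both control libraries, and none was lower in both. Groups that did not overlap were common among all genes, 12.5% higher and 20.8% lower. Without control replicate 2 the median was -0.50, without control replicate 1 it was 0.49, and without CFZ replicate 1 it was 0.12. The atrial markers summed to 334 and 201 FPKM in CFZ, against 2829 and 1599 FPKM in control. The part of the atrial share in these values was not tested.

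Between CFZ_EA and CFZ hearts, the complex I genes mt-Nd4l, mt-Nd4, mt-Nd5 and mt-Nd2 gave the largest positive values, which rested in part on 1 library, and no gene was called. Over all genes 0.0194% were called, 2 genes, both higher in CFZ_EA. None of the 13 had an unadjusted p under 0.05 with edgeR, and 1 did with DESeq2, while 319 of all genes did with edgeR. DESeq2 called 55 of all genes, and neither it nor limma called a member. The median log2 fold change of the 13 genes was 0.34, against -0.0084 over all genes, and 10 of 13 were positive. mt-Nd4l had 0.89 ± 0.43, mt-Nd4 0.67 ± 0.46, mt-Nd5 0.55 ± 0.33 and mt-Nd2 0.50 ± 0.40 (SE). Without CFZ_EA replicate 2 these were 0.43, 0.16, 0.33 and 0.14, and without CFZ replicate 1 mt-Nd4 was 0.37 and mt-Nd2 0.31. Lowest were mt-Co3 (-0.09 ± 0.27), mt-Nd3 (-0.05 ± 0.34) and mt-Co1 (-0.02 ± 0.32). For all 13 genes the Benjamini-Hochberg adjusted p in edgeR's test was 1.0. mt-Nd2, mt-Atp8, mt-Nd5 and mt-Nd4l were higher in both CFZ_EA libraries than in both CFZ libraries and mt-Co3 was lower, against 15.1% higher and 17.7% lower among all genes. Without CFZ_EA replicate 2 the median was 0.05, and without CFZ_EA replicate 1 it was 0.57. The atrial markers summed to 958 and 5691 FPKM in CFZ_EA, against 334 and 201 FPKM in CFZ, and were highest in CFZ_EA replicate 2. The part of the atrial share in these values was not tested.

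All 13 genes had a positive log2 fold change in CFZ_EA hearts against control, from 0.16 ± 0.34 (mt-Nd3) to 0.47 ± 0.42 (mt-Nd4l, SE). Only mt-Nd4l (0.027) and mt-Co3 (0.020) were positive without control replicate 2. No gene passed the test, here or elsewhere in the genome, so 0.0% of all genes were called with edgeR. An unadjusted p under 0.05 was reached by 530 of all genes and by none of the 13, and DESeq2 called 51 genes, none of them a member. The median of the 13 genes was 0.27, against -0.0013 over all genes, and edgeR's adjusted p ran from 0.882 to 0.953. mt-Co3 alone was higher in both CFZ_EA libraries than in both control libraries, and none was lower. Among all genes 10.5% did not overlap in the higher direction and 22.1% in the lower. Without control replicate 2 the median was -0.09, without control replicate 1 it was 0.84, and without CFZ_EA replicate 2 it was 0.00165. Each pair of the 3 comparisons shares the libraries of 1 group, so their values are not independent of each other.

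**Figure D3:**
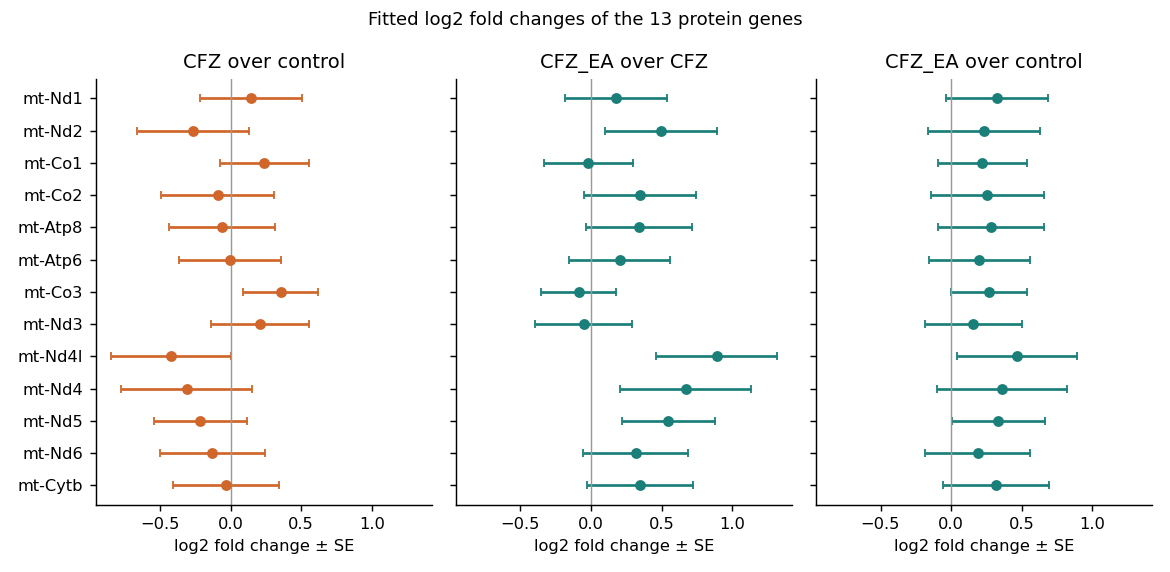
Log2 fold changes (horizontal axis, points) with their standard errors (bars) from edgeR for the 13 protein genes, in genome order from the top, in CFZ over control, CFZ_EA over CFZ and CFZ_EA over control. Most bars cross or come near 0, mt-Nd4l stands farthest out at -0.42, 0.89 and 0.47, and all points of CFZ_EA over control lie above 0.

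The mix of transcripts within the 13 genes needs no scaling between libraries, since each gene is given as a share of their summed counts. mt-Co1 alone held 55.7% and 47.0% in CFZ_EA, 58.2% and 53.8% in CFZ, and 49.8% and 56.2% in control. Its groups overlapped in each comparison. The complex I genes together held 17.6% and 23.1% in CFZ_EA, 15.4% and 17.5% in CFZ, and 21.5% and 17.2% in control. CFZ_EA lay above CFZ here, if only by 17.6% against 17.5% for the nearest pair (exact p = 0.333), and control overlapped both. The library with the highest complex I share, CFZ_EA replicate 2, also had the highest atrial marker sum, 5691 FPKM, and the part of atrial tissue in this share was not tested. Complex IV genes held 72.8% and 64.8% in CFZ_EA, 75.8% and 72.8% in CFZ, and 67.3% and 73.5% in control. The share of mt-Cytb, for complex III, was 8.18% and 10.4% in CFZ_EA, 7.55% and 8.26% in CFZ, and 9.55% and 7.95% in control. The genes of complex V held 1.29% to 1.69% in every library. All these shares leave out the nuclear copies. With the copies added to their genes, mt-Atp6 alone held 2.82% (CFZ replicate 1) to 3.76% (CFZ_EA replicate 2). mt-Co1 then held 42.1% (CFZ_EA replicate 2) to 51.3% (CFZ replicate 1).

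For CFZ against control, 5 of the 13 genes did not overlap in their share of this mix, and for CFZ_EA against CFZ 6 of 13. In their FPKM levels, 33.3% and 32.8% of all genes did not overlap in these comparisons, so such a count is common with 2 libraries a group. In CFZ, mt-Co3 took 12.9% and 13.4% of the 13 genes' counts, against 11.0% and 12.1% in control, while mt-Nd2, mt-Nd4, mt-Nd4l and mt-Nd5 took less in both CFZ libraries than in both control libraries. mt-Nd4 took 3.00% and 4.2% in CFZ, against 5.41% and 4.32% in control. mt-Nd4l took 0.327% and 0.397% in CFZ, against 0.594% and 0.452% in control. Of the other complex I genes, mt-Nd1, mt-Nd3 and mt-Nd6 overlapped. The atrial marker sum was also lower in both CFZ libraries than in every other library, and its part in this mix was not tested. In CFZ_EA, mt-Nd2, mt-Atp8, mt-Nd4l and mt-Nd5 took more and mt-Co3 and mt-Nd3 less in both libraries than in both CFZ libraries, while mt-Nd1, mt-Nd4 and mt-Nd6 overlapped. mt-Nd5 took 2.66% and 3.10% in CFZ_EA and 2.23% and 2.06% in CFZ. mt-Co3 took 12.1% and 11.0% in CFZ_EA and 12.9% and 13.4% in CFZ. For CFZ_EA against control no gene separated the groups. Each of these 11 differences had exact p = 0.333, the smallest that 2 libraries against 2 can give, and the shares of 1 mix are tied to each other. Because 39 such comparisons were made, no difference in the mix could pass a correction.

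**Figure D4:**
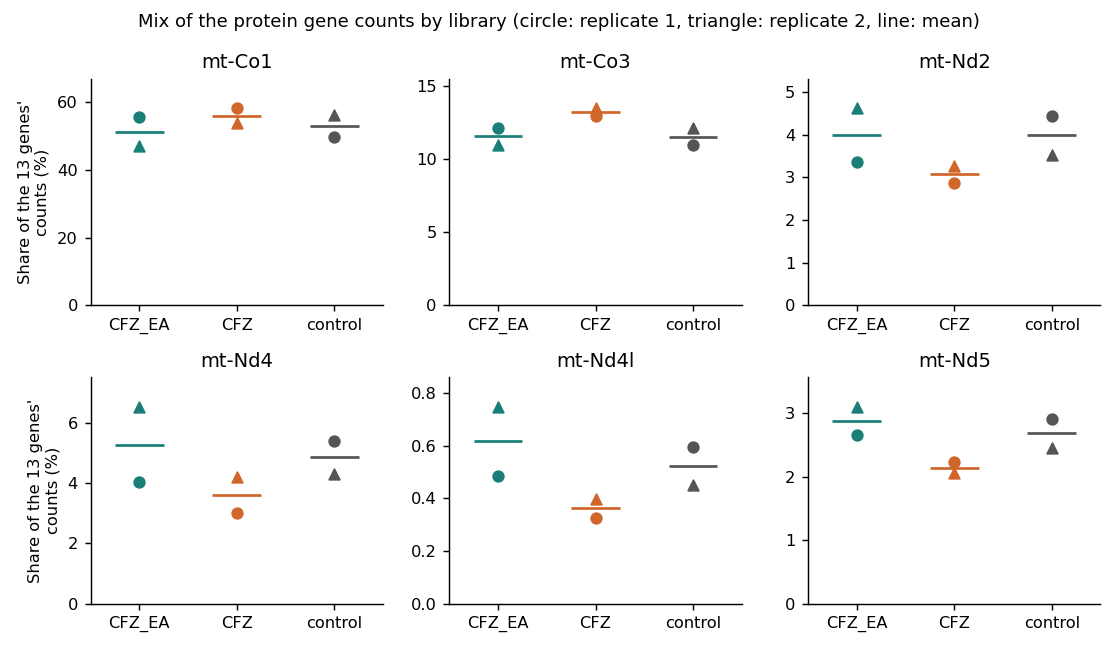
Share of the 13 genes' summed counts in percent (vertical axes start at 0) for 6 genes, with a circle for replicate 1, a triangle for replicate 2 and a line for the mean of each group. CFZ lies above the other groups for mt-Co3 and below them for mt-Nd2, mt-Nd4l and mt-Nd5, while the groups overlap for mt-Co1 and CFZ_EA and CFZ overlap for mt-Nd4.

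The mitochondrial rRNAs, which form the core of the organelle's ribosome, were highest in control replicate 2, the library with the fewest mitochondrial mRNA counts. mt-Rnr1, the small subunit RNA (ENSMUSG00000064337, 70 to 1024, plus strand), measured 834 and 879.6 FPKM in CFZ_EA, 683 and 861 FPKM in CFZ, and 906 and 2029 FPKM in control. mt-Rnr2, the large subunit RNA (ENSMUSG00000064339, 1094 to 2675, plus strand), measured 736 and 925 FPKM in CFZ_EA, 538 and 842 FPKM in CFZ, and 832 and 2442 FPKM in control. Per 100 counts on the protein genes there were 1.14 and 1.20 rRNA counts in CFZ_EA, 0.925 and 1.23 in CFZ, and 1.17 and 4.52 in control. So 5 libraries lay close together and control replicate 2 alone was several-fold above them. Some RNAs of the nucleus that carry no poly(A) tail were also highest in control replicate 2. The sum of Rn7sk, Rmrp and Rpph1, chosen after their values were seen, was 5.78 and 3.62 FPKM in CFZ_EA, 9.79 and 7.11 FPKM in CFZ, and 5.79 and 55.4 FPKM in control. Among the other libraries, CFZ replicate 1 had the highest sum but the lowest level of both rRNAs. The part of RNA without a poly(A) tail in the rRNA values was not tested.

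Neither rRNA was called in any comparison. For CFZ against control mt-Rnr1 had a log2 fold change of -0.84 ± 0.34 (SE, edgeR adjusted p = 0.647) and mt-Rnr2 of -1.15 ± 0.49 (adjusted p = 0.650). The unadjusted p of mt-Rnr1 was 0.05 after rounding, just under the 0.05 limit, and both rRNAs were under 0.05 with DESeq2 without being called. In CFZ_EA over control the values were -0.69 ± 0.34 and -0.88 ± 0.49 (edgeR adjusted p = 0.848 for both). In CFZ_EA over CFZ they were 0.15 ± 0.34 and 0.27 ± 0.48 (edgeR adjusted p = 1.0). Control replicate 2 decided these values. Without it the log2 fold change of CFZ over control was -0.24 for mt-Rnr1 and -0.27 for mt-Rnr2, and that of CFZ_EA over control was -0.083 and -0.0047. With control replicate 2 as the lone control, mt-Rnr1 in CFZ over control reached -1.26 (edgeR adjusted p = 0.044, in a range of 0.044 to 1.0 over all alternatives).

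Transfer RNAs bring the amino acids to the mitochondrial ribosome, and their genes of 59 to 75 bases are shorter than the average insert that the labels give. They took 0.0666% and 0.0607% of the counts in CFZ_EA, 0.0539% and 0.0571% in CFZ, and 0.0671% and 0.0355% in control. CFZ_EA lay above CFZ without overlap (difference of 0.0082 percentage points, exact p = 0.333), and control spanned both. The genes on the minus strand had the higher median level: their median over the means of 8 genes was 719 FPKM, against 30.9 FPKM for the 14 on the plus strand. Shown here with the anticodon in capitals are the highest of them, mt-Tn for asparagine (chrMT:5089-5159, minus strand) and mt-Te for glutamate (chrMT:14071-14139, minus strand), beside mt-Tt for threonine (chrMT:15289-15355, plus strand), which follows mt-Cytb.
mt-Tn: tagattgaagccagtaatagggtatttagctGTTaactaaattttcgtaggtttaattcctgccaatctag
mt-Te: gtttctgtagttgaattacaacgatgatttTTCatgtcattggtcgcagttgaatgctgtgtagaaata
mt-Tt: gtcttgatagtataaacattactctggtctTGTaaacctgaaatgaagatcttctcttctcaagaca
mt-Tn measured 2082 and 1342 FPKM in CFZ_EA, 1596 and 1467 FPKM in CFZ, and 1799.7 and 904 FPKM in control. mt-Te measured 1418 and 1958 FPKM in CFZ_EA, 1169 and 1667 FPKM in CFZ, and 1944 and 1015 FPKM in control. mt-Tt measured 15.2 and 9.30 FPKM in CFZ_EA, 16.8 and 10.8 FPKM in CFZ, and 12.6 and 14.5 FPKM in control. The RNA of the other strand runs across every tRNA gene before it is cut, and without knowing whether strand was used in counting, reads of the 2 strands cannot be told apart.

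Among the tRNA genes next to mt-Tn, mt-Ta (alanine), mt-Tc (cysteine) and mt-Ty (tyrosine) had the same order of libraries as mt-Tn at the top and at the bottom. Each was highest in CFZ_EA replicate 1, and each was lowest in control replicate 2, with mt-Ta at 1392 and 619 FPKM, mt-Tc at 1026 and 438 FPKM and mt-Ty at 629.9 and 291 FPKM in these libraries. mt-Tp (proline) measured 423 to 841 FPKM, with both extremes in control. mt-Tq (glutamine) measured 45.8 to 82.8 FPKM, and mt-Ts1 (serine) 2.67 to 8.92 FPKM.

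A cluster of 3 tRNA genes that follows mt-Nd4 differed in 1 library. It comprises mt-Th for histidine, mt-Ts2 for serine and mt-Tl2 for leucine, at chrMT:11546-11612, chrMT:11613-11671 and chrMT:11671-11741 on the plus strand, shown with the anticodon in capitals.
mt-Th: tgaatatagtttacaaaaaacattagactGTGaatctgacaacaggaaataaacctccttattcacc
mt-Ts2: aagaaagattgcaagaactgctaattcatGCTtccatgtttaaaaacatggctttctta
mt-Tl2: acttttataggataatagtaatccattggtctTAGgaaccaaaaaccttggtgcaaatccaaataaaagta
mt-Th measured 50.4 and 17.2 FPKM in CFZ_EA, 118 and 18.6 FPKM in CFZ, and 16.8 and 30.3 FPKM in control. mt-Ts2 measured 39.5 and 6.24 FPKM in CFZ_EA, 109.7 and 13.9 FPKM in CFZ, and 14.2 and 24.6 FPKM in control. mt-Tl2 measured 28.1 and 12.2 FPKM in CFZ_EA, 79.6 and 11.2 FPKM in CFZ, and 13.9 and 18.6 FPKM in control. CFZ replicate 1 was the highest library and CFZ_EA replicate 1 the next for all 3 genes, while CFZ replicate 2 lay among the low ones. CFZ replicate 1 was also the library with the lowest mt-Nd4 and mt-Nd4l. The counts behind it were 561, 461 and 402, against 31 to 242 in the other libraries. The log2 fold changes of CFZ over control were 1.57 ± 0.89 for mt-Th, 1.70 ± 1.11 for mt-Ts2 and 1.51 ± 0.87 for mt-Tl2 (SE, edgeR adjusted p from 0.695 to 0.720). Without CFZ replicate 1 they were -0.22, -0.37 and -0.41. In CFZ_EA over CFZ they were -0.98 ± 0.87, -1.40 ± 1.10 and -1.14 ± 0.85, and without CFZ replicate 1 they were 0.81, 0.66 and 0.78.

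No tRNA was called in any comparison, with edgeR, DESeq2 or limma. Among the 22, edgeR gave an unadjusted p under 0.05 to 0 genes for CFZ against control, 1 for CFZ_EA against CFZ and 2 for CFZ_EA against control, and DESeq2 gave the same counts. The genes under 0.05 were mt-Tr, for arginine (9808 to 9875, plus strand), in both comparisons of CFZ_EA, and mt-Td, for aspartate (6942 to 7011, plus strand), in CFZ_EA against control. mt-Tr measured 44.0 and 53.7 FPKM in CFZ_EA, 25.4 and 27.2 FPKM in CFZ, and 28.4 and 20.8 FPKM in control. mt-Td measured 37.0 and 46.3 FPKM in CFZ_EA, 20.6 and 24.9 FPKM in CFZ, and 27.2 and 15.1 FPKM in control. Both genes were higher in both CFZ_EA libraries than in any other library. They lie between genes that have a copy on chromosome 1, where the copies leave gaps of the same or nearly the same length. Whether reads of such a stretch enter the levels of mt-Tr and mt-Td was not tested. The log2 fold change of mt-Tr was 0.90 ± 0.31 for CFZ_EA over CFZ (SE, unadjusted p = 0.0272, edgeR adjusted p = 1.0) and 1.04 ± 0.31 for CFZ_EA over control (unadjusted p = 0.0155, adjusted p = 0.848). For mt-Td the values were 0.88 ± 0.40 (unadjusted p = 0.0689) and 1.01 ± 0.40 (unadjusted p = 0.0436), with the same edgeR adjusted p. The sign of both genes held with any 1 library left out, from 0.73 to 1.06 and from 0.78 to 1.37 for mt-Tr, and from 0.69 to 1.08 and from 0.61 to 1.59 for mt-Td. Of the 22 genes, CFZ_EA lay above CFZ without overlap for 7 and below for 1, and above control for 5 and below for none. CFZ lay above control for 2 and below for 1. Among all genes tested, the levels did not overlap for 15.1% in the higher and 17.7% in the lower direction for CFZ_EA against CFZ. They were 10.5% and 22.1% for CFZ_EA against control, and 12.5% and 20.8% for CFZ against control.

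The other tRNAs of the plus strand spanned a wide range. mt-Tl1 (leucine), which follows mt-Rnr2, measured 504 and 637 FPKM in CFZ_EA, 346 and 370.0 FPKM in CFZ, and 522 and 240.3 FPKM in control. mt-Ti (isoleucine) measured 222 to 457 FPKM, mt-Tm (methionine) 222 to 514 FPKM and mt-Tw (tryptophan) 110.4 to 196 FPKM over the 6 libraries. mt-Tf (phenylalanine), mt-Tv (valine), mt-Tg (glycine) and mt-Tk (lysine) lay between 1.36 and 13.2 FPKM. mt-Tf and mt-Tv flank mt-Rnr1 at the start of the rRNA unit, and mt-Tf rested on 6 to 19 counts a library.

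**Figure D5:**
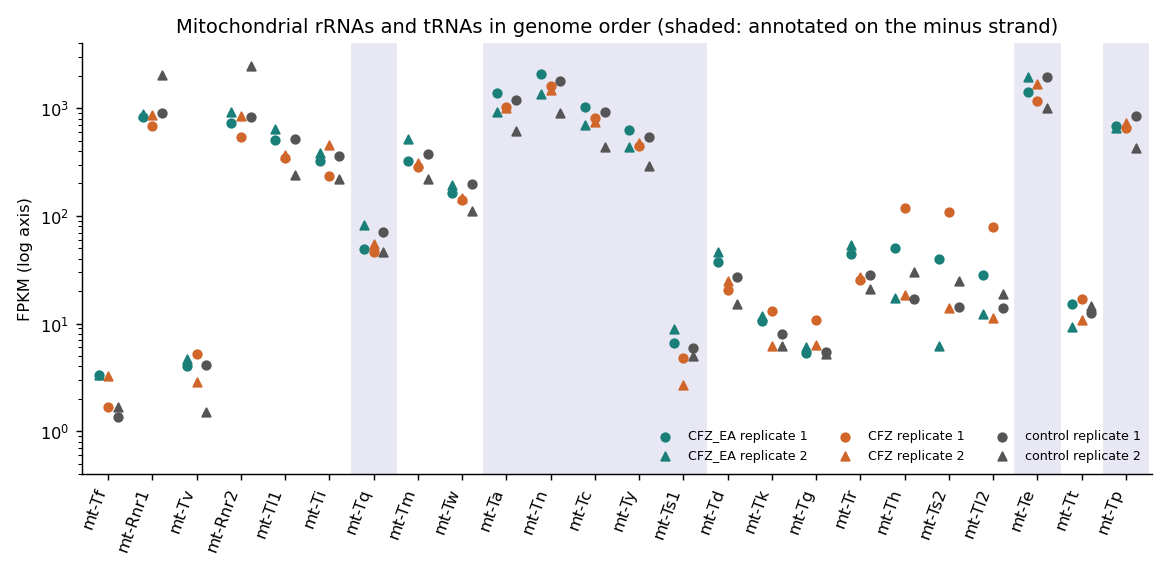
FPKM (vertical log axis) of the 2 rRNA and 22 tRNA genes in genome order in the 6 libraries, with colour for the group, circle or triangle for replicate 1 or 2, and shading for genes annotated on the minus strand. Control replicate 2 is high for both rRNAs, at 2029 and 2442 FPKM, and CFZ replicate 1 for mt-Th, mt-Ts2 and mt-Tl2, while most shaded tRNAs lie above most unshaded ones.

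The nuclear subunits of the same complexes gave a different picture. The 73 nuclear subunit genes took 5.68% and 5.35% of the counts in CFZ_EA, 5.94% and 6.08% in CFZ, and 5.57% and 5.24% in control. CFZ was above the other groups without overlap (exact p = 0.333 for both comparisons, the smallest possible). The mitochondrial protein genes, without their nuclear copies, summed to 4.87 and 5.96 times the FPKM of the nuclear subunit genes in CFZ_EA. The ratio was 4.42 and 4.60 in CFZ, and 5.53 and 3.88 in control. This ratio separated CFZ_EA from CFZ (exact p = 0.333), and control overlapped both. No nuclear subunit was called in any comparison with edgeR, DESeq2 or limma, and 2, 3 and 0 of the 73 had an edgeR unadjusted p under 0.05 for CFZ against control, CFZ_EA against CFZ and CFZ_EA against control.

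For CFZ over control, 35 of 36 subunits of complex I had a positive log2 fold change (median 0.22), as did 9 of 9 of complex III (0.21), 11 of 11 of complex IV (0.23) and 17 of 17 of complex V (0.21). Without control replicate 2 the counts were 31, 9, 9 and 14, and the medians 0.10, 0.08, 0.06 and 0.11. For CFZ_EA over CFZ the positive ones were 2 of 36, 0 of 9, 1 of 11 and 1 of 17, with medians of -0.14, -0.11, -0.11 and -0.12, and without CFZ_EA replicate 2 they were 1, 0, 1 and 2. The mitochondrial median was 0.34 in that comparison, but 0.05 without CFZ_EA replicate 2. For CFZ_EA over control 33, 9, 10 and 13 were positive (0.08, 0.11, 0.07 and 0.06), but without control replicate 2 only 7, 3, 3 and 6 (-0.03, -0.02, -0.02 and -0.06). Ndufb5, an accessory subunit of complex I, measured 50.5 and 48.5 FPKM in CFZ_EA, 68.7 and 70.9 FPKM in CFZ, and 62.0 and 59.0 FPKM in control. Its log2 fold change was -0.49 ± 0.13 for CFZ_EA over CFZ (SE, edgeR adjusted p = 1.0). Atp5j2, a membrane subunit of the ATP synthase, measured 194 and 189 FPKM in CFZ_EA, 244 and 274 FPKM in CFZ, and 202 and 187 FPKM in control. Both genes were higher in both CFZ libraries than in the other 4.

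Of the nuclear genes that act on mitochondrial DNA and RNA, none was called with edgeR in any comparison. Among 13 tested genes of transcription and replication, 10 were positive for CFZ over control (median log2 fold change 0.14), 5 for CFZ_EA over CFZ (-0.10) and 7 for CFZ_EA over control (0.02), with 0, 0 and 1 at an unadjusted p under 0.05. Polrmt, the mitochondrial RNA polymerase, measured 6.47 and 5.89 FPKM in CFZ_EA, 6.07 and 5.80 FPKM in CFZ, and 5.13 and 6.22 FPKM in control. Only 4 of the 13 without control replicate 2 were positive for CFZ over control (median -0.03) and 3 for CFZ_EA over control (-0.12). Without CFZ_EA replicate 2 there were 6 for CFZ_EA over CFZ (-0.026) and 10 for CFZ_EA over control (0.07). Of 35 tested genes of RNA processing, modification and stability, 29 were positive for CFZ over control (0.16), 12 for CFZ_EA over CFZ (-0.04) and 27 for CFZ_EA over control (0.15), with 2, 0 and 3 under 0.05. With control replicate 2 left out, 25 were positive for CFZ over control (0.05) and 19 for CFZ_EA over control (0.0072). Without CFZ_EA replicate 2 there were 15 for CFZ_EA over CFZ (-0.022) and 23 for CFZ_EA over control (0.05). DESeq2 called 1 of them, Nsun4, in both comparisons with control.

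Nsun4, which methylates the small ribosomal RNA and acts in ribosome assembly, measured 6.76 and 5.69 FPKM in CFZ_EA, 6.98 and 6.56 FPKM in CFZ, and 2.85 and 2.19 FPKM in control. All 4 libraries of carfilzomib-treated hearts were above both control libraries. Its log2 fold change was 1.47 ± 0.20 for CFZ over control (SE, edgeR adjusted p = 0.50, DESeq2 adjusted p = 1.4e-07) and 1.35 ± 0.20 for CFZ_EA over control (edgeR adjusted p = 0.467, DESeq2 adjusted p = 2.4e-06). Over all alternatives the adjusted p ran up to 0.611 and 0.995, so the call depended on the test. Without control replicate 2 the values were 1.23 and 1.12. Slirp, which stabilises mitochondrial mRNA together with Lrpprc, measured 5.48 and 5.55 FPKM in CFZ_EA, 6.02 and 4.72 FPKM in CFZ, and 3.67 and 3.61 FPKM in control. Its log2 fold change was 0.61 ± 0.16 for CFZ over control and 0.66 ± 0.16 for CFZ_EA over control (edgeR adjusted p = 0.608 and 0.848).

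Of 10 mitochondrial translation factors, 7 were positive for CFZ over control (median 0.15), 7 for CFZ_EA over CFZ (0.03) and 8 for CFZ_EA over control (0.13), with 1, 0 and 0 under an unadjusted p of 0.05. Leaving out control replicate 2, 6 were positive both for CFZ over control (0.05) and for CFZ_EA over control (0.017), and without CFZ_EA replicate 2 there were 6 for CFZ_EA over CFZ (0.05). Tufm, the elongation factor that brings aminoacyl-tRNA to the mitochondrial ribosome, measured 118 and 116 FPKM in CFZ_EA, 146 and 131 FPKM in CFZ, and 118 and 110.1 FPKM in control. Of 9 tested regulators of mitochondrial biogenesis, 8 were positive for CFZ over control (0.17), 4 for CFZ_EA over CFZ (-0.01) and 9 for CFZ_EA over control (0.23), with 1, 0 and 0 under 0.05. There were 7 without control replicate 2 for CFZ over control (0.15) and 8 for CFZ_EA over control (0.11), and without CFZ_EA replicate 2 there were 6 for CFZ_EA over CFZ (0.05). Ppargc1a, a coactivator that drives the expression of mitochondrial genes of the nucleus, measured 3.21 and 3.82 FPKM in CFZ_EA, 3.11 and 2.14 FPKM in CFZ, and 3.65 and 2.37 FPKM in control. Its groups overlapped in every comparison except CFZ_EA over CFZ, where the log2 fold change was 0.44 ± 0.29 (edgeR adjusted p = 1.0).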

How the data were processed

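Hearts were measured by RNA sequencing in 6 libraries, 2 per group. Poly(A) selection on oligo(dT) was followed by a dUTP step that marks strand, per the labels' protocols. GRCm38 is the build named in the submitters' processing notes, which list StringTie 1.3.4d, HISAT2 2.0.4 and cutadapt 1.9 without roles or order. For the annotation release, the use of strand and reads that match several places, the handling is not given in the sources used here. The authors deposited, per the file headers, FPKM values and, in a column per library, estimated counts, which were rounded to whole numbers. Of the counts from 1 to 20, 42.2% to 43.3% were multiples of 4, so counts may not be whole reads, and the intervals may then be too narrow. Wilson 95% intervals cover counting error only.

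The 10329 genes whose mean FPKM reached 1 were fitted with edgeR 4.0.16, TMM scaling and group as the only term in 1 model of all 6 libraries, which leaves 3 residual degrees of freedom. Adjusted p-values are Benjamini-Hochberg over all genes tested, called under 0.05. Shares per library were compared with exact permutation tests. DESeq2 1.42.0 and limma 3.58.1 on log2(FPKM + 1) were alternatives, with other scalings, filters, denominators, a replicate block and the libraries left out in turn. Adding the nuclear copies to their genes was chosen after seeing the data. Copies were aligned with Biopython 1.88 in Python 3.11.15, and R was version 4.3.3. The main edgeR fit, but not the other steps, was tested on simulated counts.

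The members and gene lists were chosen with earlier results of these data known. All mitochondrial genes were named, from each nuclear list up to 4 members with the lowest unadjusted p (a part of these is given), and from cell type lists the sum. Pearson's r between libraries was 0.938 to 0.979 over 10329 genes, and no libraries held identical values.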

Additional observations from a re-analysis of the deposited data

How the results depend on the processing

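No mitochondrial protein gene was called in any comparison under any of the alternatives run, and the median log2 fold changes and shares kept their sign under all of them except when a library was left out. Outside of these, of the genes followed only mt-Atp6 and mt-Cytb in CFZ over control changed sign: mt-Atp6 gave 0.039 with edgeR's own filter, 0.040 with no filter and 0.057 with the nuclear copies added, and mt-Cytb gave 0.012 with edgeR's filter and 0.014 with no filter. With the copies added the medians were -0.06, 0.32 and 0.28 for CFZ over control, CFZ_EA over CFZ and CFZ_EA over control. Same-numbered libraries showed little shared deviation (r of deviations 0.08 for CFZ_EA and CFZ, -0.05 for CFZ_EA and control and -0.07 for CFZ and control). With 2 libraries a group, this cannot show whether they were handled together. With the replicate number as a block 0 genes were called and the medians were -0.03, 0.35 and 0.27.

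Leaving out single libraries gave these ranges, and with 2 libraries a group the remaining one is assumed to vary like the other groups. The share of counts differed by -1.99 to 4.35 percentage points for CFZ minus control, and by -0.59 to 5.75 for CFZ_EA minus control. The median ranged from -0.50 to 0.49 for CFZ over control, from 0.05 to 0.57 for CFZ_EA over CFZ and from -0.09 to 0.84 for CFZ_EA over control. In CFZ over control mt-Co1 ranged from 0.0046 to 0.51 and mt-Co3 from 0.11 to 0.65. The log2 fold changes that changed sign there ranged for mt-Nd1 -0.27 to 0.73, mt-Nd2 -0.69 to 0.33, mt-Co2 -0.50 to 0.48, mt-Atp8 -0.52 to 0.62, mt-Atp6 -0.37 to 0.49 and mt-Nd3 -0.22 to 0.82. For CFZ over control the range was also mt-Nd4 -0.73 to 0.28, mt-Nd5 -0.61 to 0.32, mt-Nd6 -0.56 to 0.49, mt-Cytb -0.43 to 0.52, mt-Nd4l -0.86 to 0.21 and mt-Th -0.22 to 2.34. For CFZ over control the range was also mt-Ts2 -0.37 to 2.52 and mt-Tl2 -0.41 to 2.30. In CFZ_EA over CFZ mt-Nd4l ranged from 0.43 to 1.25, mt-Nd4 from 0.16 to 1.07, mt-Nd5 from 0.33 to 0.75 and mt-Nd2 from 0.14 to 0.80. The log2 fold changes that changed sign there ranged for mt-Nd1 -0.010 to 0.36, mt-Co1 -0.063 to 0.034, mt-Co2 -0.0010 to 0.64, mt-Atp6 -0.11 to 0.53, mt-Co3 -0.21 to 0.056 and mt-Nd3 -0.21 to 0.14. For CFZ_EA over CFZ the range was also mt-Rnr1 -0.047 to 0.39, mt-Rnr2 -0.059 to 0.69, mt-Th -1.91 to 0.81, mt-Ts2 -3.21 to 0.66 and mt-Tl2 -1.93 to 0.78. In CFZ_EA over control the log2 fold changes that changed sign ranged for mt-Nd1 -0.092 to 0.92, mt-Nd2 -0.19 to 0.83, mt-Co1 -0.011 to 0.50, mt-Co2 -0.16 to 0.84, mt-Atp8 -0.18 to 0.97 and mt-Atp6 -0.17 to 0.70. For CFZ_EA over control the range was also mt-Nd3 -0.27 to 0.77, mt-Nd4 -0.15 to 0.96, mt-Nd5 -0.058 to 0.88, mt-Nd6 -0.25 to 0.81 and mt-Cytb -0.079 to 0.88. Depth limits tRNAs such as mt-Tf, with 6 to 19 counts a library.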
